A study of Mus musculus with 6 samples.

Results

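The genes described here encode the machinery of oxidative phosphorylation, complexes I to V of the inner mitochondrial membrane. They were chosen by symbol alone: mt-Nd, mt-Co, mt-Atp and mt-Cytb genes of the mitochondrial genome, and nuclear genes named Nduf, Sdh, Uqcr, Cox4 to Cox8 or Atp5. The rule found 106 genes of the 32285 in the table, 13 encoded in the mitochondrial and 93 in the nuclear genome, and left out 1 name ending in -ps, Ndufb1-ps. Complex I had 43 of them, complex II 4, complex III 9, complex IV 23 and complex V 19, and 8 were Ndufaf assembly factors of complex I.

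RNA was measured in cultured mouse GS cells, spermatogonia from testis that grow as a germline stem cell culture. The p57 KO group (3 libraries) carried floxed Cdkn1c, which encodes p57, an inhibitor of cyclin-dependent kinases, and received Cre recombinase from an adenovirus. The control group (3 libraries) is labelled p57 flox/flox. RNA was taken 2 days after infection, and the question is what deletion of Cdkn1c changes in these cells. All 6 libraries share the floxed genotype. The labels leave out whether control cells were infected with any virus. The labels disagree on the mice, with an age of 3 days in the growth protocol against 10 days in the design text, and with BDF1 as the model against C57BL/6 and 129 as the strains. They do not say whether replicates were separate cultures, so that p-values reflect only library-to-library spread, part of which may be technical.

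The libraries held 15940375 to 17893671 counts in p57 KO and 15662833 to 16979459 in control. Cdkn1c itself had 8.71, 9.44 and 8.51 CPM (counts scaled to a common library total) in p57 KO and 20.9, 21.4 and 19.9 CPM in control, a log2 fold change of -1.22 (SE 0.09, adjusted p = 4.07e-09). Markers of undifferentiated spermatogonia were present in all libraries and summed to 3710 to 3920 CPM in p57 KO and 4330 to 4400 CPM in control. Of these 14 markers 9 were called lower, beside 11.6% of all genes tested. The summed level of fibroblast markers was higher in p57 KO. It was 672, 814 and 1160 CPM in p57 KO and 447, 550 and 453 CPM in control. All 15 were counted and 5 were called higher, beside 11.6% of all genes tested. Col1a1, Col1a2, Col3a1, Col5a1 and Fbln2 weighed most in the sum. Twist1 averaged 11.4 CPM in p57 KO and 11.3 CPM in control. In bulk RNA, fewer cells of a type and less RNA per cell cannot be told apart.

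Oxidative phosphorylation moves electrons from NADH (complex I) and succinate (complex II) through ubiquinone to complex III, by cytochrome c to complex IV, and from there to oxygen. Complexes I, III and IV pump protons, and complex V, the ATP synthase, lets them back to make ATP. Complex II is wholly nuclear encoded, while the other complexes mix subunits of both genomes. The mitochondrial genome is transcribed from each strand as a long precursor that is cut at its tRNAs. Several nuclear subunits exist as a common form and as a form restricted to tissues such as heart, lung or testis. The promoters of many nuclear subunit genes hold binding motifs of NRF1 and of GABP, also called NRF2.

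Promoter windows were read for 75 of the 93 nuclear genes, from RefSeq on GRCm38.p6, 250 bases before to 50 after the start, on both strands. A gene was counted if any of its windows held a match. The NRF1 motif, GCGCA, any base and GCGC, was found for 25.3% of these genes and for 5.19% of 27025 genes. The GABP letters CCGGAAG were found for 25.3% of these genes, against 9.93%. The YY1 letters AAGATGGCG were found for 10.7%, against 1.64%. At least 1 of the 3 motifs was found for 52.0% of the nuclear genes and 15.1% of all genes. It was found for 7 of 12 genes that rose, 3 of 5 that fell and 29 of 57 that were not called. A match is a description and not a binding site.

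Cox6b2, the testis form of a complex IV subunit, and Cox6b1, its common partner, are shown first because the main difference lies between them. Atp5k and Ndufa11 follow, because both hold the NRF1 letters and moved in opposite directions. The windows lie at chr7:4753045-4753344, chr7:30626065-30626364 and chr5:108434350-108434649 on the minus strand and at chr17:56717512-56717811 on the plus strand. Capitals mark the motif matches, with CTTCCGG the GABP letters read from the other strand:
Cox6b2: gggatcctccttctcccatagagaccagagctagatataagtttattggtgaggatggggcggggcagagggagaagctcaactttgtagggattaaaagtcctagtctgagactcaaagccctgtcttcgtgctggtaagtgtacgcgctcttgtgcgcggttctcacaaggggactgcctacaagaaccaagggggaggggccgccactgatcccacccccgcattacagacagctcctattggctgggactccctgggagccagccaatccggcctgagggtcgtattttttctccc
Cox6b1: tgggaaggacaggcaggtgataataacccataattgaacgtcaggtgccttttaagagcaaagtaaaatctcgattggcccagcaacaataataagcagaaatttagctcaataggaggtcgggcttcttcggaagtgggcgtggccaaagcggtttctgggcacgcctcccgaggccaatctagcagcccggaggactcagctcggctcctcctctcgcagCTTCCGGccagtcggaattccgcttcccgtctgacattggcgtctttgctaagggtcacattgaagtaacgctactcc
Atp5k: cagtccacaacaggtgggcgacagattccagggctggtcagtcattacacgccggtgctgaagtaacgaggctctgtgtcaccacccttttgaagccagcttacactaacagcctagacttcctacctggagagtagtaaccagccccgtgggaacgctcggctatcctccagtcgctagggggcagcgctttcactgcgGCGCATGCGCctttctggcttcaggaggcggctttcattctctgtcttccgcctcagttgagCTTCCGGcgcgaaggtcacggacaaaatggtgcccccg
Ndufa11: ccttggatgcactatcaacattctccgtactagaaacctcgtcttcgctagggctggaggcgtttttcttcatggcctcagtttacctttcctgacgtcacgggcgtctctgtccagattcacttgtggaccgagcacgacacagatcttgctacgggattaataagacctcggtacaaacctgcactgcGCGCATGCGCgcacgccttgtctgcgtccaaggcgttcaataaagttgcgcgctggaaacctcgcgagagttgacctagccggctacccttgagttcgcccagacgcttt
The Cox6b2 window held none of the 3 motifs and 10 CpG dinucleotides. The Cox6b1 window held 1 GABP match and 17 CpG. The median window held 19.5 CpG among the nuclear genes described here and 7 among all genes.

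Most oxidative phosphorylation genes differed little between the groups. After the removal of low counts 102 of the 106 were tested. Of these, 14 rose and 10 fell in p57 KO at an adjusted p under 0.05, which is 23.5% of 102, against 23.3% of all 14814 genes tested. In this fit the share called was near the background. The sizes were smaller, in sets not matched for expression level. The median absolute log2 fold change was 0.08, against 0.12 for all genes, and 7.84% of the members passed 0.2, against 30.2% of all genes. Sizes also carry counting noise: the median SE of the members was 0.0432, and mt-Nd4l, with few counts, had 0.39. Whether sizes differ at equal level was not tested. The median over the members was -0.02, and -0.002 over all genes. The groups did not overlap, with p57 KO higher, for 22 members, against 19.5% of all genes tested. They did not overlap, with p57 KO lower, for 19 members, against 19.7%. A single member, Cox6b2, changed by more than 1.2-fold in a test against that fold.

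**Figure D1:**
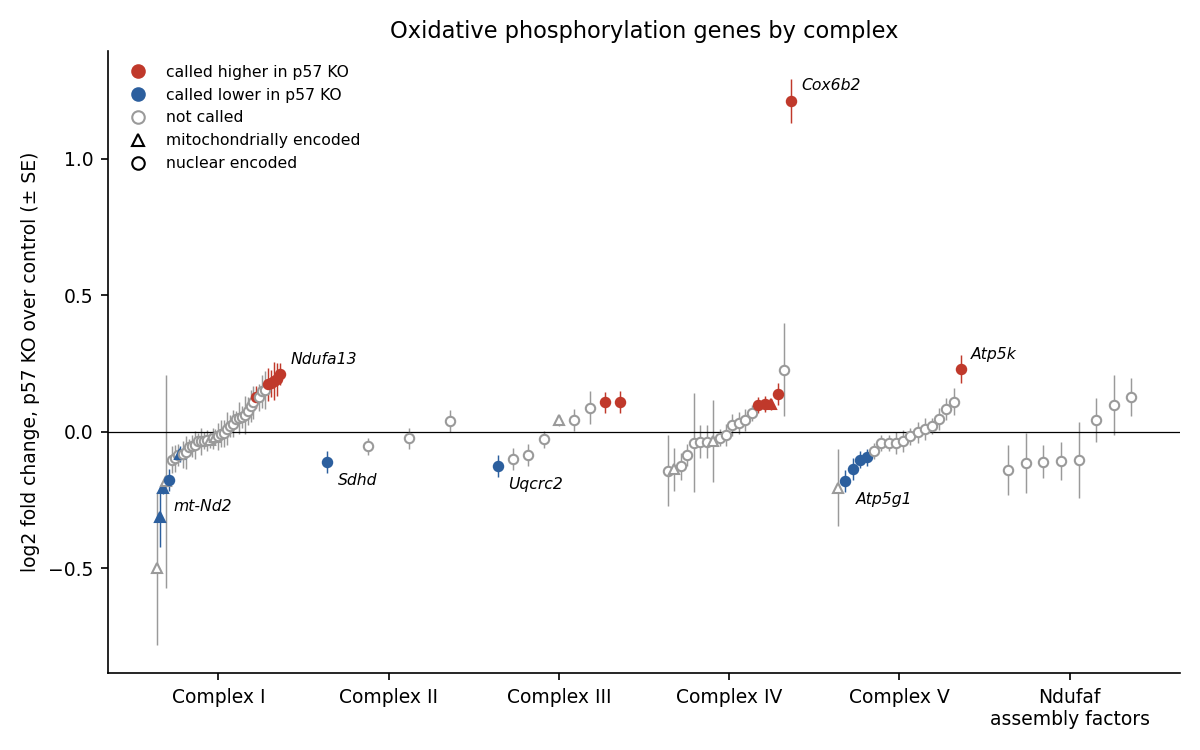
Log2 fold change (p57 KO over control, with SE) of the 102 tested genes, in order of size within each complex; triangles are mitochondrially and circles nuclear encoded, and filled symbols passed the test. Cox6b2 stands at 1.21, and the other called genes lie between -0.31 and 0.23.

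Many calls were lost when 1 library was left out, which also leaves fewer libraries to test. Of the 24 called members, 9 passed in each of the 6 fits that left out 1 library: Cox6b2, Cox7a2l, mt-Co1, mt-Nd2, Ndufa11, Ndufa13, Atp5b, Atp5g1 and Atp5k. No called member changed its sign in any of the 15 alternatives. DESeq2 called 9 members, 4 higher and 5 lower, which is 8.82% of them, against 15.6% of all genes with an adjusted p. Without single libraries 9.8 to 16.7% of the members were called, below the share of all genes in the same fit each time, which was 15.6 to 26.7%. The narrowest gap was 16.7% against 18.2% without p57 KO replicate 3, and the widest 16.7% against 26.7% without p57 KO replicate 1. These differences in share were not tested. A fit with the mean log2 level of the fibroblast markers as a covariate called 4 of the 24 (Cox6b2, mt-Co1, mt-Nd2 and Uqcrc2), while its calls over all genes numbered 380, against 3450 without it. The covariate does not overlap between the groups, at 3.81, 4.38 and 4.86 in p57 KO and 3.01, 3.55 and 3.02 in control.

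**Figure D2:**
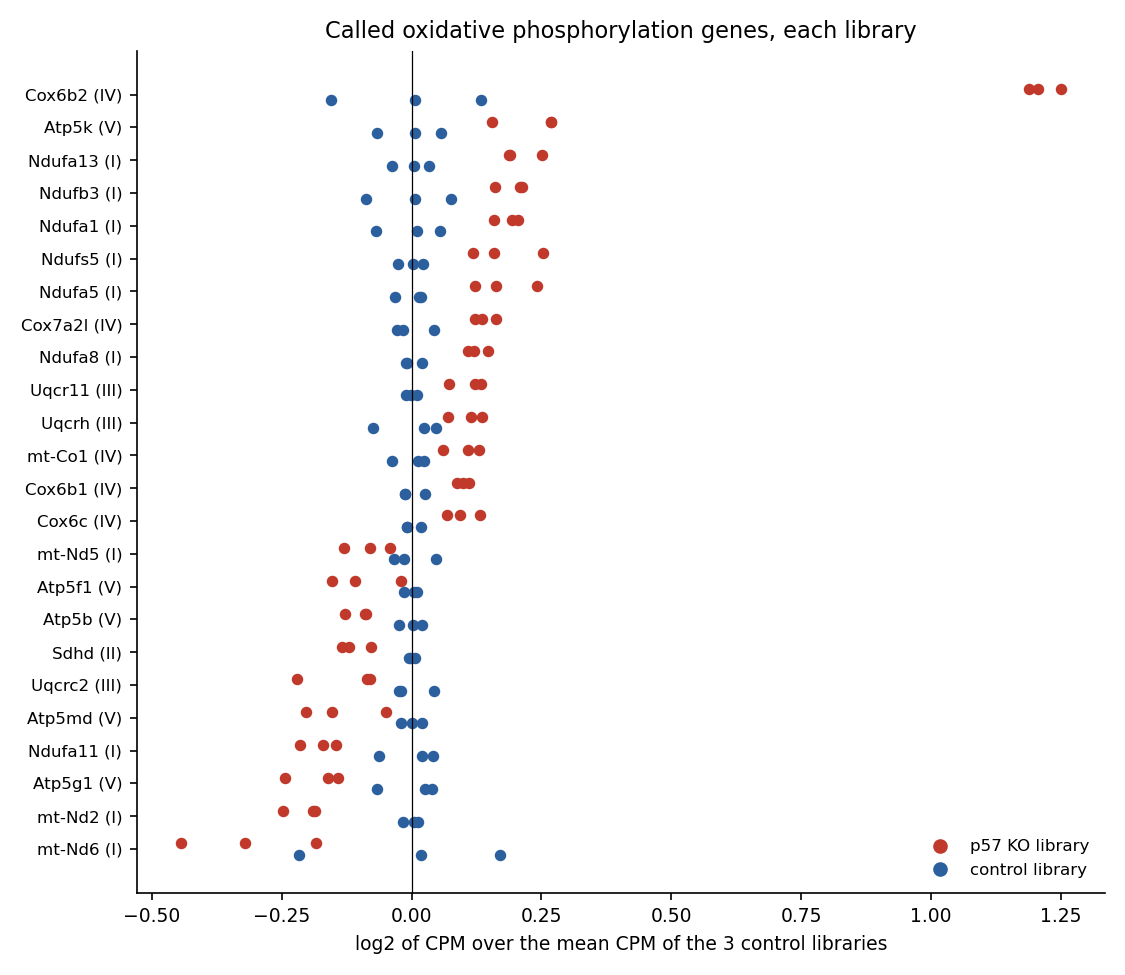
Each library's level of the 24 called genes, as log2 of its CPM over the control mean, with p57 KO libraries in red above control libraries in blue and the complex in brackets. The groups overlap for mt-Nd6 and for no other of these genes; the Cox6b2 values of p57 KO lie apart from those of every other gene.

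Complex IV, cytochrome c oxidase, held the largest change. Its subunit 6B lies on the side of the intermembrane space, close to where cytochrome c docks, and Cox6b2 is the form known from testis and sperm. Cox6b2 had 32.6, 32.2 and 33.6 CPM in p57 KO and 12.7, 14.2 and 15.5 CPM in control. All p57 KO libraries were above all control libraries, from 516, 529 and 599 counts in p57 KO and 209, 242 and 243 in control. The log2 fold change was 1.21 (SE 0.08, adjusted p = 2.45e-10), a 2.32-fold level, and leaving out single libraries gave 1.14 to 1.28. With the fibroblast covariate it was 1.17 (adjusted p = 8e-08). The gene lies at chr7:4751792-4753094 on the minus strand (mm10), and none of its 76-base stretches occurs in another annotated gene. Among all tested genes it was number 8 by p-value and number 305 by size among those that rose.

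The common form Cox6b1 moved much less. It had 120, 119 and 121 CPM in p57 KO and 111, 114 and 111 CPM in control, a log2 fold change of 0.10 (adjusted p = 0.032). This call was lost without p57 KO replicate 2 (adjusted p = 0.0638) or 3 (adjusted p = 0.0892) and without control replicate 1 (adjusted p = 0.112) or 3 (adjusted p = 0.103). Cox6b2 made up 22.3, 22.2 and 22.6% of the Cox6b counts per transcript length in p57 KO and 10.8, 11.7 and 12.9% in control. In raw counts the shares were 21.4, 21.3 and 21.7% in p57 KO and 10.3, 11.1 and 12.3% in control. Their 95% Wilson intervals, which cover counting error only, reached down to 19.7% in p57 KO and up to 13.8% in control. An exact two-sided permutation test gave p = 0.1, the lowest value possible with 3 libraries a group. Cox6b1 remained the main form in all libraries.

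No other tissue form of complex IV passed the test. Cox7b2, also known from testis, had 26.5, 26.9 and 26.6 CPM in p57 KO and 27.4, 28.1 and 26.5 CPM in control (log2 fold change -0.04, SE 0.06, adjusted p = 0.726). It was the larger part of the Cox7b counts per length, 58.6, 56.2 and 56.4% in p57 KO and 56.3, 59.2 and 55.6% in control. In raw counts it was the smaller part, 43.3, 41.0 and 41.2% in p57 KO and 41.1, 44.0 and 40.4% in control, so which form is the larger rests on the transcript lengths used. Cox8c, the third testis form, had 3.65 ± 0.469 CPM in p57 KO and 3.73 ± 0.592 CPM in control. Its share per length was 3.6 ± 0.404% in p57 KO and 3.65 ± 0.479% in control. Cyct, the testis form of cytochrome c, had 24.6 ± 2.52 CPM in p57 KO and 25.4 ± 2.38 CPM in control (log2 fold change -0.05, adjusted p = 0.719). These groups overlapped for each of the 3 genes.

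Forms of other tissues were low. Cox7a1, of heart and muscle, had 6.21 ± 0.0434 CPM in p57 KO and 6.86 ± 0.774 CPM in control (log2 fold change -0.14, SE 0.13). Ndufa4l2, a partner of Ndufa4 induced by hypoxia, had 4.25 ± 0.503 CPM in p57 KO and 3.62 ± 0.282 CPM in control (log2 fold change 0.23, SE 0.17). Cox4i2, of lung, had 6, 3 and 5 counts in p57 KO and 4, 6 and 5 in control. Cox6a2, of muscle, had 0, 1 and 0 counts in p57 KO and 2, 0 and 0 in control. Cox8b had no count in any library. The last 3 were not tested.

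Markers of meiotic and later germ cells were mixed in level, with the spermatid genes low but Sycp3 and Piwil1 clearly present. Summed over 11 genes they had 78.9 to 83.6 CPM in p57 KO and 75.6 to 77.3 CPM in control, and none of the 5 tested was called by edgeR or DESeq2 (1 at an unadjusted p under 0.05). Sycp3, a protein of meiotic chromosome axes, had most of this sum. It averaged 47.1 CPM in p57 KO and 42.7 CPM in control (log2 fold change 0.14, adjusted p = 0.0545). These means were above those of Cox6b2, 32.8 CPM in p57 KO and 14.2 CPM in control. The Sycp3 groups did not overlap, with 45.4 CPM the lowest value in p57 KO and 43.2 CPM the highest in control. Piwil1, which binds piRNAs in meiotic cells, averaged 22.8 CPM in p57 KO and 23.5 CPM in control. Of the spermatid genes, Prm1, Prm2 and Tnp2 were at or near 0 in both groups, Tnp1 averaged 2.05 CPM in p57 KO and 1.89 CPM in control, and Spaca1 averaged 4.84 CPM in p57 KO and 4.68 CPM in control. The part of such cells in the Cox6b2 level was not tested.

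**Figure D3:**
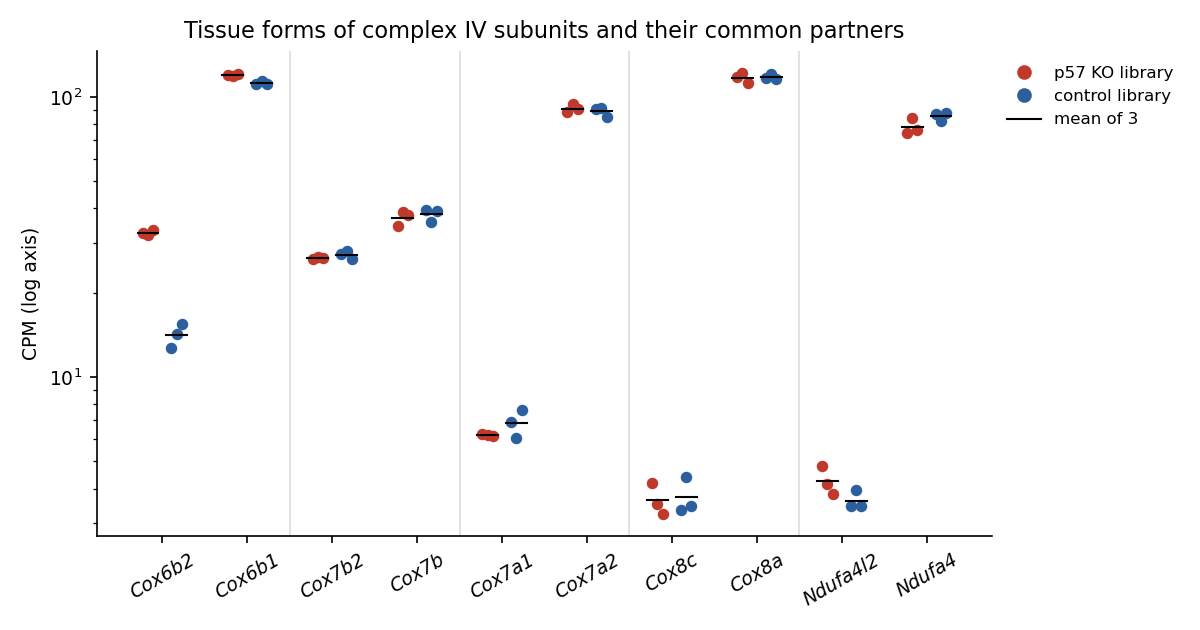
CPM on a log axis of tissue forms and their common partners, with p57 KO libraries in red left of control libraries in blue and the mean as a line. Cox6b2 shows separate groups, 32.2 to 33.6 CPM in p57 KO and 12.7 to 15.5 CPM in control, while the groups of Cox7b2, Cox7a1, Cox8c and Ndufa4l2 overlap.

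In the rest of complex IV the called members rose by small amounts and no fall was called, while the members not called had log2 fold changes of either sign. In all, 5 of 20 tested members were called, beside 23.3% of all genes tested, 11.6% in each direction. A difference from that share was not tested. Cox5a and Ndufa4, 2 members with negative values, had an unadjusted p under 0.05 in edgeR, while DESeq2 called no fall. Cox7a2l, described as a factor for supercomplexes of complexes III and IV, had 105, 104 and 107 CPM in p57 KO and 94.5, 98.5 and 93.7 CPM in control. Its log2 fold change was 0.14 (SE 0.04, adjusted p = 0.00717), and DESeq2 gave an adjusted p of 0.0503. Cox6c, a small membrane subunit, had 119, 116 and 114 CPM in p57 KO and 108, 110 and 108 CPM in control (log2 fold change 0.10, adjusted p = 0.0431). Its groups were separate, yet it passed in 1 of the 6 fits that left out a library, and its adjusted p was 0.0706 to 0.127 in the others, that is, without p57 KO replicate 1 or 2 or any control replicate. Cox4i1, the common subunit 4 and per length the most abundant nuclear member in p57 KO, had 470 CPM per kb in p57 KO and 449 in control, and did not pass (adjusted p = 0.0716). Ndufa4, first assigned to complex I and now counted with complex IV, had 78.4 ± 5.19 CPM in p57 KO and 85.6 ± 3.18 CPM in control (adjusted p = 0.0502). The other tested common subunits lay between -0.08 and 0.04 on the log2 scale.

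Complex I, the NADH dehydrogenase, holds core subunits of both genomes. None of its 7 nuclear core subunits, which carry the electron path, was called by edgeR or DESeq2, with 2 at an unadjusted p under 0.05 (Ndufs8 and Ndufv2). Of all genes tested, edgeR called 23.3%. Ndufv2, a core subunit with an iron-sulfur cluster, had a log2 fold change of -0.10, the lowest among them. Of 29 accessory subunits, which surround the core, 6 rose and 1 fell, which is 24.1% and near the background. Of the mitochondrially encoded core subunits, mt-Nd2, mt-Nd5 and mt-Nd6 were called lower. Whether core and accessory subunits differ was not tested. Ndufv1, the core subunit that takes up NADH, had 255 ± 3.33 CPM in p57 KO and 261 ± 4.12 CPM in control. Ndufs1, the core subunit with the most iron-sulfur clusters, had 145 ± 4.57 CPM in p57 KO and 151 ± 0.87 CPM in control. Neither passed.

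Ndufa13, also called GRIM-19, had the smallest p among the accessory subunits. It had 82.6, 82.7 and 86.3 CPM in p57 KO and 74.2, 72.7 and 70.6 CPM in control, a log2 fold change of 0.21 (SE 0.04, adjusted p = 0.000538). Its exons overlap those of Tssk6 on the other strand, a gene at 0 to 0.442 CPM in p57 KO and 0 to 0.182 CPM in control, and 25.5% of its 76-base stretches occur in another gene. Ndufa11, a subunit of the membrane arm, fell. It had 64.0, 65.1 and 62.1 CPM in p57 KO and 69.0, 73.0 and 74.1 CPM in control (log2 fold change -0.18, SE 0.04, adjusted p = 0.00482). Its exons overlap Vmac on the other strand. No source used here gives the strand setting of the counting, so counts of overlapping genes are uncertain.

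The other accessory subunits that rose had fold changes of like size and calls that were lost in some or all of the fits that left out a library. Ndufb3 had 38.6, 39.9 and 40.0 CPM in p57 KO and 34.7, 36.4 and 32.5 CPM in control (log2 fold change 0.19, adjusted p = 0.0177). It did not pass without p57 KO replicate 2 (adjusted p = 0.0593) or control replicate 3 (adjusted p = 0.115). Ndufs5 had 45.9, 41.8 and 43.0 CPM in p57 KO and 38.6, 39.1 and 37.8 CPM in control (log2 fold change 0.18, adjusted p = 0.0205). It was lost without p57 KO replicate 1 (adjusted p = 0.0864), control replicate 1 (adjusted p = 0.0579) or control replicate 3 (adjusted p = 0.0857). Ndufa5 had 34.6, 37.6 and 35.6 CPM in p57 KO and 32.2, 32.1 and 31.1 CPM in control (log2 fold change 0.17, adjusted p = 0.0335), and passed only without p57 KO replicate 1, with adjusted p of 0.0544 to 0.146 in the other 5 fits. Ndufa8 (log2 fold change 0.13, adjusted p = 0.0459) and Ndufa1 (0.19, adjusted p = 0.0495), both outside the rule for named genes, passed in none of the 6, at adjusted p of 0.0527 to 0.133 and of 0.0606 to 0.193. In these 5 genes all p57 KO libraries lay above all control libraries, by margins of a few CPM.

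None of the 8 Ndufaf assembly factors, which build complex I and leave it, was called by edgeR or DESeq2. Of all genes tested, edgeR called 23.3%. None of the 8 had an unadjusted p under 0.05 in edgeR. Their log2 fold changes ran from -0.14 to 0.13. Their levels were 6.81 to 28.0 CPM in p57 KO and 7.32 to 30.2 CPM in control.

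Complex II, the succinate dehydrogenase, had 1 call among 4 genes, beside 23.3% of all genes tested. Sdhd, a membrane anchor, had 80.3, 77.2 and 77.9 CPM in p57 KO and 84.4, 84.7 and 85.1 CPM in control (log2 fold change -0.11, SE 0.04, adjusted p = 0.0368). The groups were separate, but the call held only without p57 KO replicate 1, and the adjusted p was 0.0769 to 0.104 in the other 5 such fits. Sdha, the subunit that oxidises succinate and the most abundant of the complex per length, had 292, 293 and 294 CPM in p57 KO and 310, 297 and 305 CPM in control (log2 fold change -0.05, adjusted p = 0.161). Sdhb and Sdhc lay at 0.04 and -0.02.

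Complex III, the cytochrome bc1 complex, had 3 calls among 9 genes, beside 23.3% of all genes tested. A difference from that share was not tested. Uqcrc2, a core protein, fell. It had 80.8, 89.0 and 88.7 CPM in p57 KO and 92.8, 97.0 and 92.6 CPM in control (log2 fold change -0.13, SE 0.04, adjusted p = 0.0313), and p57 KO library 1 was the lowest. The call was lost without p57 KO replicate 1 (adjusted p = 0.138) and without control replicates 1, 2 and 3 (adjusted p = 0.0502, 0.133 and 0.0545). With the fibroblast covariate its log2 fold change was -0.27 (adjusted p = 0.0284).

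Both called rises of complex III were of small subunits. Uqcrh, the hinge protein that helps bind cytochrome c, had 127, 131 and 133 CPM in p57 KO and 123, 125 and 115 CPM in control (log2 fold change 0.11, adjusted p = 0.0343). It was lost without p57 KO replicates 2 (adjusted p = 0.0899) and 3 (adjusted p = 0.109) and without control replicates 1 (adjusted p = 0.0566) and 3 (adjusted p = 0.208), and its value with the covariate was 0.02. Uqcr11 had 95.9, 96.7 and 92.6 CPM in p57 KO and 88.8, 87.5 and 88.1 CPM in control (log2 fold change 0.11, adjusted p = 0.0357). It passed only without p57 KO replicate 3, at adjusted p of 0.074 to 0.127 in the other 5 fits. Uqcrfs1, the Rieske iron-sulfur protein, had 61.8 ± 0.736 CPM in p57 KO and 59.9 ± 0.807 CPM in control and did not pass.

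Complex V, the ATP synthase, had 1 rise and 4 falls among 18 tested genes, beside 11.6% of all genes in each direction. A difference from that share was not tested. The catalytic head, F1, had 5 nuclear subunits, all with negative log2 fold changes between -0.10 and -0.02, of which 1 was called. That was Atp5b, the catalytic beta subunit and per length the most abundant nuclear member in control. It had 882, 880 and 857 CPM in p57 KO and 950, 939 and 921 CPM in control, with separate groups and a log2 fold change of -0.10 (SE 0.03, adjusted p = 0.006). Per length it had 456 CPM per kb in p57 KO and 489 in control.

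The c ring turns as protons pass, and 3 genes encode the same mature c subunit with different import sequences. Atp5g1 had 92.6, 91.4 and 86.3 CPM in p57 KO and 104, 97.6 and 105 CPM in control (log2 fold change -0.18, SE 0.04, adjusted p = 0.00231). Its share of the raw counts of the 3 genes was 35.8, 34.7 and 33.8% in p57 KO and 37.4, 36.6 and 37.9% in control. Atp5g2 took 19.3, 19.7 and 19.1% in p57 KO and 17.8, 17.0 and 16.2% in control, although its own level did not pass the test (log2 fold change 0.11, adjusted p = 0.13). Atp5g3 took 45.9 ± 1.07% in p57 KO and 45.7 ± 0.875% in control. With the fibroblast covariate the log2 fold change of Atp5g1 was -0.04 (adjusted p = 0.869).

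In the membrane part, Atp5k, subunit e at the dimer contact of the enzyme, rose. It had 51.1, 51.1 and 47.2 CPM in p57 KO and 40.5, 44.1 and 42.6 CPM in control (log2 fold change 0.23, SE 0.05, adjusted p = 0.00312), the largest rise of a called member after Cox6b2. Atp5md, a small subunit of the same part, fell. It had 76.6, 82.3 and 74.0 CPM in p57 KO and 86.4, 84.0 and 85.2 CPM in control (log2 fold change -0.14, adjusted p = 0.0225). It was lost without p57 KO replicate 3 (adjusted p = 0.125) and control replicates 1 (adjusted p = 0.078) and 3 (adjusted p = 0.0655). Atp5f1, subunit b of the peripheral stalk, had 223, 237 and 216 CPM in p57 KO and 238, 241 and 242 CPM in control (log2 fold change -0.09, adjusted p = 0.0361), and passed only without p57 KO replicate 2, at adjusted p of 0.0549 to 0.192 in the other 5 fits.

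The 13 mitochondrially encoded genes took overlapping shares of all counts in the groups. The share was 3.88, 3.72 and 3.83% in p57 KO and 3.82, 3.74 and 3.84% in control. Of these mitochondrially encoded counts, 99.9% in both groups came from 6 of the 13 genes. The 93 nuclear genes together took 0.868 ± 0.0129% in p57 KO and 0.877 ± 0.00711% in control (SD, n = 3 each), also with overlap. Of 12 mitochondrial genes tested, 1 rose and 3 fell, beside 11.6% of all genes tested in each direction. The median of these 12 was -0.11 on the log2 scale. It was -0.06 without control replicate 3, -0.03 with the fibroblast covariate and -0.13 to -0.10 without each other library. It rests in part on genes of low counts, while the 6 genes with most counts lay between -0.21 (mt-Nd2) and 0.10 (mt-Co1). Of 90 nuclear genes tested, 13 rose and 7 fell, beside the same 11.6% in each direction. The median of these 90 was -0.01, and 0.03 with the covariate. Differences of either genome from the share of all genes were not tested.

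Within the mitochondrial counts the make-up differed. mt-Nd2, a membrane subunit of complex I, had 3540, 3400 and 3550 CPM in p57 KO and 4050, 3990 and 4070 CPM in control (log2 fold change -0.21, SE 0.02, adjusted p = 3.51e-06). mt-Co1, the catalytic subunit of complex IV, had 12700, 12100 and 12500 CPM in p57 KO and 11700, 11300 and 11800 CPM in control (log2 fold change 0.10, SE 0.02, adjusted p = 0.00466). The groups were separate for each gene, and the changes were in opposite directions. mt-Nd2 had 0.278, 0.280 and 0.284 counts per count of mt-Co1 in p57 KO and 0.346, 0.352 and 0.345 in control. Against mt-Nd1, which encodes another membrane subunit of complex I and lies just before mt-Nd2, the ratio of mt-Nd2 was 0.656, 0.667 and 0.670 in p57 KO and 0.736, 0.759 and 0.758 in control. With the fibroblast covariate the log2 fold changes were -0.19 for mt-Nd2 (adjusted p = 0.00538) and 0.15 for mt-Co1 (adjusted p = 0.0349).

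mt-Nd1, mt-Nd4 and mt-Cytb did not pass, with log2 fold changes of -0.03, -0.02 and 0.04 and SE of 0.02 to 0.03. mt-Nd1 had 5390, 5100 and 5300 CPM in p57 KO and 5500, 5250 and 5370 CPM in control. mt-Cytb, the only mitochondrial gene of complex III, had 10600, 10000 and 10400 CPM in p57 KO and 10000, 9970 and 10100 CPM in control. The groups overlapped in both genes. mt-Nd5 had 3830, 3600 and 3730 CPM in p57 KO and 3850, 3900 and 4070 CPM in control (log2 fold change -0.08, adjusted p = 0.036), and was lost without p57 KO replicates 2 (adjusted p = 0.184) and 3 (adjusted p = 0.0577) and control replicates 2 (adjusted p = 0.0609) and 3 (adjusted p = 0.189). mt-Nd6, the only protein gene of the other strand, had 12.1, 11.1 and 13.3 CPM in p57 KO and 15.3, 17.0 and 13.0 CPM in control (log2 fold change -0.31, SE 0.11, adjusted p = 0.036). Its groups overlapped, its exons overlap those of mt-Nd5, and it was lost without p57 KO replicate 2 (adjusted p = 0.148) and control replicates 1 (adjusted p = 0.0933) and 2 (adjusted p = 0.201).

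The levels fell into 2 ranges. mt-Co1, mt-Cytb, mt-Nd1, mt-Nd2, mt-Nd4 and mt-Nd5 held 99.9% of the mitochondrially encoded counts in both groups, at 2040 to 9030 CPM per kb in p57 KO and 2140 to 8770 in control. The other 7 genes had at most 31.2 CPM per kb in p57 KO and 34.4 in control. mt-Co2 had 338, 355 and 377 counts in p57 KO and 375, 368 and 409 in control, although mt-Co1, cut from the same precursor, had 199302 to 223409 counts in p57 KO and 184644 to 192805 in control. mt-Co3 had 77 to 107 counts in p57 KO and 88 to 111 in control, and mt-Atp6 had 79 to 108 counts in p57 KO and 99 to 104 in control. mt-Nd4l, whose mRNA also carries mt-Nd4, had 9 to 15 counts in p57 KO and 7 to 18 in control, while mt-Nd4 had 46754 to 51615 counts in p57 KO and 46849 to 49038 in control. mt-Nd3 had 16 to 30 counts in p57 KO and 22 to 36 in control. mt-Atp8, not tested, had 0, 5 and 2 counts in p57 KO and 8, 11 and 9 in control.

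Copies of mitochondrial DNA in the nuclear genome are annotated as pseudogenes, and reads of 76 bases that match both places may be dropped by a counting program. Of the 76-base stretches of each gene, 99.5% of mt-Co2, 99.9% of mt-Co3, 99.5% of mt-Atp6, 97.8% of mt-Nd3 and 98.6% of mt-Nd4l occur in such a gene model. The share was 61.5% for mt-Nd4, 39.4% for mt-Co1, 5.6% for mt-Nd2, 1.5% for mt-Nd5 and 0 for mt-Nd1, mt-Cytb, mt-Nd6 and mt-Atp8. The 5 genes above 97% were thus all in the low range. The low range also held mt-Nd6 and mt-Atp8, of which mt-Atp8 overlaps mt-Atp6 on the same strand. No source used here says how reads with several matches were counted, and the part of this sharing in the levels was not tested. The levels of these 5 genes, and of mt-Atp8, are uncertain. Counts of mt-Nd4 and mt-Co1, at 61.5% and 39.4%, may also be affected. So may the mitochondrial share of all counts and the ratio of mt-Nd2 to mt-Co1.

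**Figure D4:**
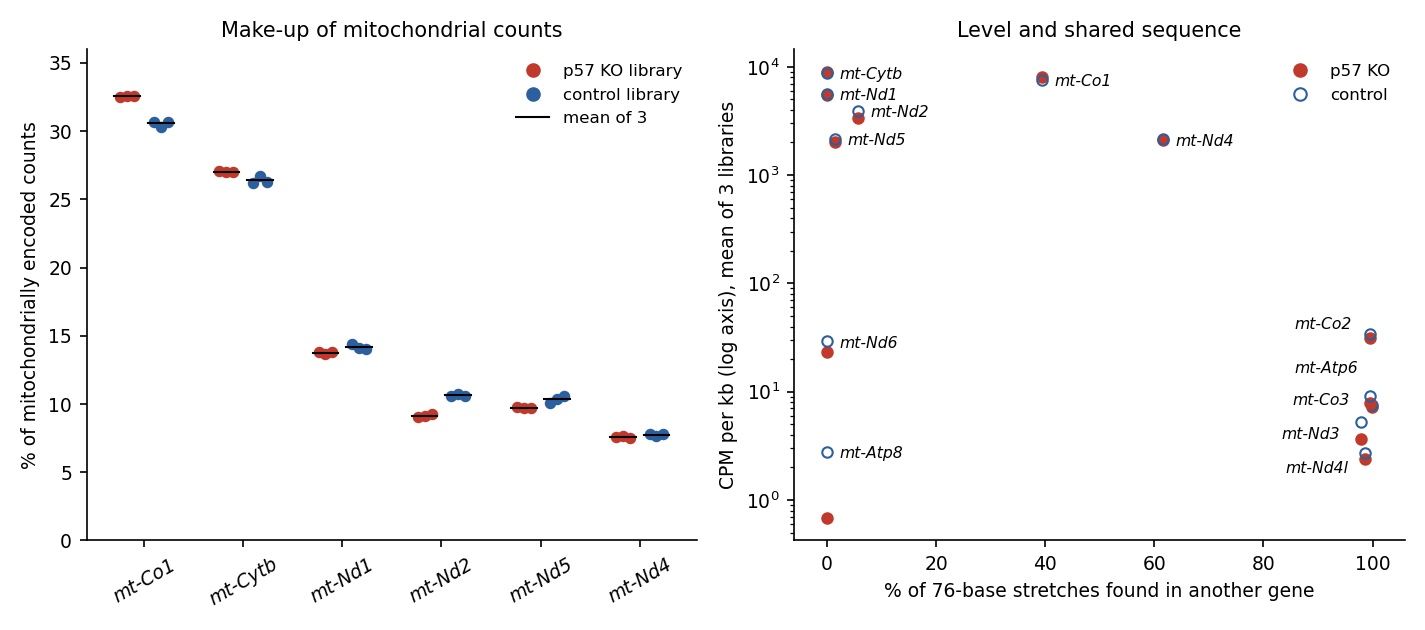
Left, each library's percentage of mitochondrially encoded counts for 6 genes, with p57 KO in red left of control in blue and the mean as a line; right, mean CPM per kb on a log axis against the percentage of a gene's 76-base stretches found in another gene. mt-Nd2 takes 9.05 to 9.25% in p57 KO and 10.6 to 10.7% in control, and the 5 genes above 97% shared sequence lie at or below 34.4 CPM per kb.

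The nuclear genes that rose were short. Their main transcripts in the GENCODE M21 annotation had a median of 680 bases (371 to 1251, n = 13), against 1900 bases (545 to 4715, n = 7) for those that fell and 921 bases for the 70 not called. These lengths rest on a single annotated transcript per gene, and the transcripts in use in these cells were not determined. Among genes that fell, Atp5g1 was taken at 4715 bases and Atp5md at 2733. Atp5g2 and Atp5g3, which encode the same c subunit as Atp5g1 and were not called, had 731 and 723 bases. Of 51 tested nuclear members of up to 1000 bases, 11 rose and 1 fell, Ndufa11. Of 29 between 1000 and 2000 bases, 2 rose and 4 fell. In the whole table the genes that rose were not short, with a median of 2950 bases, against 3710 bases for those that fell and 2810 bases for those not called. There the share that rose differed little with length, at 14.3% of 1105 genes of up to 1000 bases, 12.4% from there to 2000, 10.1% to 4000 and 12.6% above. The share that fell was 1.9, 7.06, 11.9 and 16.8% in the same order. Spearman's rho of log2 fold change with length was -0.27 over the 90 members and -0.06 over 14810 genes, each a description over genes of the same 6 libraries. The part of length in the calls was not tested.

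**Figure D5:**
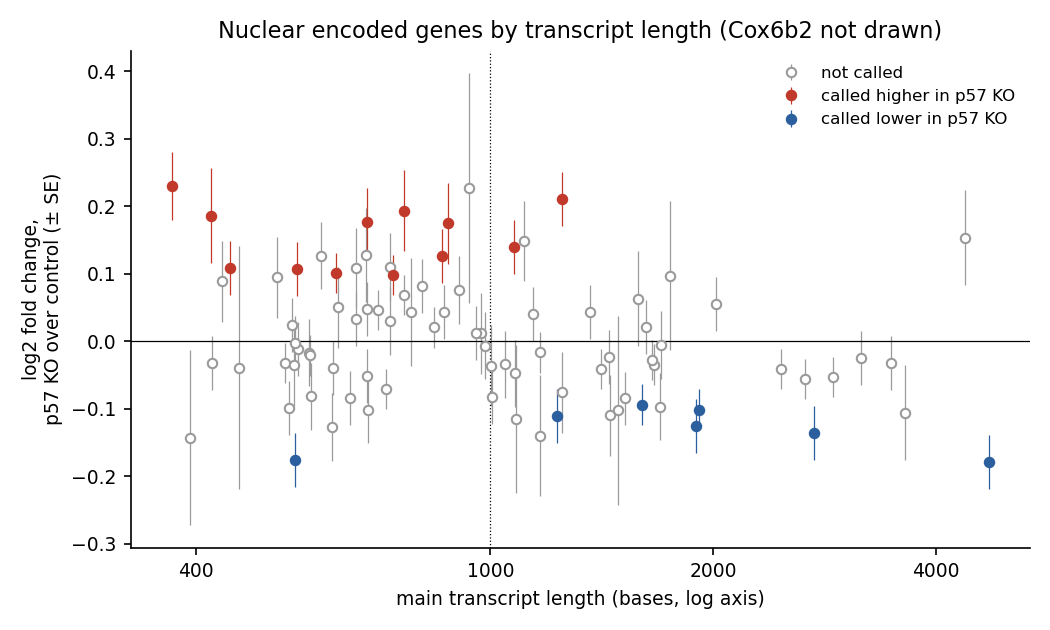
Log2 fold change (with SE) of nuclear encoded genes against main transcript length on a log axis, without Cox6b2 (585 bases, 1.21); the dotted line marks 1000 bases. Most red points, genes called higher, lie left of the line, and 6 of the 7 blue points, genes called lower, lie right of it.

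Other mitochondrial gene lists varied in how many genes were called, against 23.3% of all genes, 11.6% in each direction. The share was 21.4% of 14 regulators, 16.7% of 24 genes for mitochondrial DNA and RNA, 10.5% of 19 TCA cycle genes, 7.69% of 39 assembly factors and of 78 ribosomal proteins, and 5.56% of 18 electron carriers. Among the carriers, 1 rose and none fell in edgeR or DESeq2 (1 fall at an unadjusted p under 0.05). That was Cycs, the somatic cytochrome c, with 55.5, 56.2 and 56.3 CPM in p57 KO and 47.4, 52.1 and 42.8 CPM in control (log2 fold change 0.24, SE 0.06, adjusted p = 0.00523). With the covariate it was 0.11 (adjusted p = 0.69). Of 39 assembly factors outside the Ndufaf family, 2 rose and 1 fell. Pet100, a complex IV assembly factor, had 11.6, 12.8 and 12.4 CPM in p57 KO and 9.77, 9.77 and 8.63 CPM in control (log2 fold change 0.38, adjusted p = 0.00957). It was lost without p57 KO replicate 2 (adjusted p = 0.053) and control replicate 3 (adjusted p = 0.0637). Cox17, a copper chaperone for complex IV, had 41.4 ± 1.68 CPM in p57 KO and 36.4 ± 0.402 CPM in control (adjusted p = 0.015), and was lost without p57 KO replicate 3 (adjusted p = 0.0505) or control replicate 2 (adjusted p = 0.0576). Coa5, which is needed for complex IV assembly, fell, with 100 ± 3.01 CPM in p57 KO and 109 ± 2.75 CPM in control (adjusted p = 0.0157), and was lost without p57 KO replicate 2 (adjusted p = 0.0818) or control replicate 3 (adjusted p = 0.074).

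Of 24 tested genes that copy, transcribe or process mitochondrial DNA and RNA, 4 fell, against 7 at an unadjusted p under 0.05 and 2 called lower by DESeq2. None rose in edgeR or DESeq2, and none with a positive value had an unadjusted p under 0.05. Polg, the DNA polymerase of mitochondria, had 165, 163 and 157 CPM in p57 KO and 185, 186 and 194 CPM in control (log2 fold change -0.22, SE 0.03, adjusted p = 3.66e-05). The call held in each fit that left out a library; with the covariate the value was -0.15 (adjusted p = 0.21). Fastkd1, an RNA-binding protein of mitochondria, had 42.0 ± 0.471 CPM in p57 KO and 47.9 ± 1.82 CPM in control (log2 fold change -0.19, adjusted p = 0.0092) and was lost without control replicate 3 (adjusted p = 0.0569). Elac2, which cuts tRNAs out of the precursor, had 140 ± 3.05 CPM in p57 KO and 152 ± 4.78 CPM in control (adjusted p = 0.0135) and was lost without p57 KO replicate 2 (adjusted p = 0.0533) or control replicate 3 (adjusted p = 0.0846). Twnk, the DNA helicase of mitochondria, had 79.0 ± 5.21 CPM in p57 KO and 86.0 ± 2.42 CPM in control (adjusted p = 0.0488), with overlapping groups, and passed only without p57 KO replicate 1, at adjusted p of 0.0787 to 0.19 in the other 5 fits. Tfam, which packs and transcribes mitochondrial DNA, had 56.6 ± 1.83 CPM in p57 KO and 54.2 ± 0.993 CPM in control and did not pass.

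Of 14 regulators of these genes, 1 rose and 2 fell. Esrra, a nuclear receptor that drives oxidative genes, had 42.5, 41.5 and 40.0 CPM in p57 KO and 33.8, 34.1 and 34.1 CPM in control (log2 fold change 0.28, SE 0.05, adjusted p = 0.000697), and with the covariate 0.35 (adjusted p = 0.0598). Nrf1 and Gabpa, whose motifs were searched above, did not pass, at -0.03 each (SE 0.05 and 0.04). Ppargc1a, their coactivator, was low, at 0.568, 0.731 and 0.728 CPM in p57 KO and 0.303, 0.706 and 0.320 CPM in control. Pprc1, a related coactivator, had 464 ± 25.2 CPM in p57 KO and 502 ± 5.89 CPM in control (log2 fold change -0.11, adjusted p = 0.0158). It was lost without p57 KO replicates 2 (adjusted p = 0.0545) and 3 (adjusted p = 0.0858) and control replicate 3 (adjusted p = 0.0792). Gabpb2, a partner of Gabpa, had 157 ± 2.15 CPM in p57 KO and 167 ± 3.55 CPM in control (adjusted p = 0.0462) and was lost without p57 KO replicates 2 or 3 or control replicates 2 or 3, at adjusted p of 0.101 to 0.147.

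Of 19 genes of the TCA cycle and pyruvate dehydrogenase, 2 fell and none rose in edgeR or DESeq2 (2 rises at an unadjusted p under 0.05). Mdh2, which makes oxaloacetate, had 425 ± 7.64 CPM in p57 KO and 455 ± 8.47 CPM in control (log2 fold change -0.10, adjusted p = 0.00921). Pdha2, the testis form of a pyruvate dehydrogenase subunit, had 28.8 ± 1.38 CPM in p57 KO and 33.8 ± 1.26 CPM in control (log2 fold change -0.23, adjusted p = 0.00954). It was lost without control replicate 1 (adjusted p = 0.0502) and in DESeq2 (adjusted p = 0.0542), and with the covariate its log2 fold change was -0.07 (adjusted p = 0.858). Of 78 mitochondrial ribosomal proteins, 3 rose and 3 fell, and the median was -0.005 on the log2 scale. The shares called describe these lists, and their differences from all genes were not tested.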

How the data were processed

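The authors deposited raw counts per gene for 6 libraries, with no normalization; per the submitters' processing notes the build was mm10 and the tools were HTSeq 2.0.2, HISAT2 2.2.1, cutadapt 3.4 and bcl2fastq 2.20. Annotation, strand setting and treatment of reads with several matches are named by no source used here. Replicates of each group differed by more than sampling noise (chi-square per degree of freedom 1.74 to 6.38), so all 6 counted as libraries. Genes with low counts were removed with filterByExpr, and the 14814 left were scaled by TMM and tested together with the quasi-likelihood F-test of edgeR 4.0.16 in R 4.3.3 (alternatives: limma 3.58.1, DESeq2 1.42.0), with Benjamini-Hochberg adjustment and a threshold of 0.05. Small changes pass, as the common biological coefficient of variation over genes was 4.35%. The test was also run on counts simulated from the mean levels and dispersions of its own fit. Such a run cannot show whether the p-values hold for these libraries. CPM are TMM scaled, and CPM per kb use the main transcript of GENCODE M21. Named genes were all mitochondrial members, the tissue forms, up to 4 called members per complex and direction, the most abundant member per complex, up to 3 called genes per direction from each other list, and Cdkn1c; Gabpa, Nrf1, Tfam, Twnk, Ppargc1a, Sycp3 and members named beyond these were chosen after their values were seen. The members, lists and alternatives were chosen with earlier results of these data known. The alternatives were other size factors, scaling without mitochondrial genes, other tools and filters, a fibroblast covariate, a replicate block and each library left out. Not every gene of the set is reported by name here.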

Additional observations from a re-analysis of the deposited data

How the results depend on the processing

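Cox6b2 and Cdkn1c kept their calls in all 15 alternatives. The members called numbered 9 with DESeq2 (4 higher, 5 lower), 1 against a fold of 1.2 (1 and 0) and 4 with the fibroblast covariate (2 and 2). The nuclear members called were 6 (3 and 3), 1 (1 and 0) and 2 (1 and 1) in that order. The mitochondrial members called were 0 against the fold and 2 (1 lower) with the covariate. By complex, DESeq2 called 4 in I, 0 in II, 0 in III, 2 in IV and 3 in V; the fold test 1 in IV and 0 elsewhere; the covariate 1 in I, 0 in II, 1 in III, 2 in IV and 0 in V; limma-voom 1 in III. Of other lists, DESeq2 called 0 assembly factors, 2 mitochondrial DNA genes, 1 TCA gene and 2 ribosomal proteins, fits without a filter 4 TCA genes, and the fold and covariate fits 0 in every list. With single libraries left out, the members called ranged from 10 to 17 (5 to 11 higher, 5 to 8 lower), the nuclear from 7 to 14 (4 to 10 higher, 3 to 7 lower) and the mitochondrial from 2 to 4 (1 to 3 lower); complexes I to V ranged over 4 to 7, 0 to 1, 0 to 2, 3 to 5 and 3 to 5, and the other lists over 1 to 6 (assembly), 1 to 2 (carriers), 1 to 4 (mitochondrial DNA), 1 to 3 (regulators), 1 to 3 (TCA) and 3 to 7 (ribosomal). The sign turned with the covariate for Cox7a1 (0.02), Cox8c (0.03), Cyct (0.07), mt-Co3 (0.21), mt-Nd1 (0.02), mt-Nd4 (0.05), none of them called, and for Pprc1 (0.02). It turned with a library left out for Cox8c (0.04 without p57 KO replicate 3, 0.10 without control replicate 2; range -0.15 to 0.10), Cyct (0.03 without p57 KO replicate 2, 0.02 without control replicate 1; range -0.12 to 0.03), mt-Co3 (0.09 and 0.08 without the same libraries; range -0.13 to 0.09) and mt-Nd4l (0.06 without control replicate 2; range -0.49 to 0.06). The causes were not tested. Over all genes DESeq2 called 2448, the fold test 469 and the covariate fit 380, against 3450. The titles number the libraries of both groups alike. Deviations of same-numbered libraries had r of 0.19, 0.02 and -0.10, and those of differently numbered ones ran from -0.28 to 0.27. With 3 libraries a group these values cannot decide whether the numbers pair the libraries. With the replicate number as a block 22 of the 24 members stayed called, with Ndufa1 at 0.0519 and Ndufa8 at 0.052. That fit called 3706 genes over all. Scaling moved the median of all genes by at most 0.005. Counts under about 20, as for mt-Nd4l and mt-Atp8, limit what can be seen of these genes.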

Other observations

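The neighbours of Cox6b2 within 100 kb were read after its value was seen. Il11, a cytokine gene 19279 bases away, also rose, from few counts, with 1.07, 1.22 and 1.23 CPM in p57 KO and 0.303, 0.294 and 0.256 CPM in control (log2 fold change 2.02, SE 0.39, adjusted p = 0.000744). Rpl28, a ribosomal protein gene 39780 bases away, had 393, 395 and 378 CPM in p57 KO and 343, 335 and 347 CPM in control (log2 fold change 0.19, adjusted p = 4.96e-05). Ribosomal protein genes outside this window, such as Rpl35, Rps28 and Rpl19, were called higher as well. How many of that family were called is not given here. Kmt5c, a histone methyltransferase gene 4278 bases away on the other side, had 66.6 CPM in p57 KO and 67.3 CPM in control (log2 fold change -0.02, adjusted p = 0.836). Fam71e2, 132 bases away, was too low to test, at 0.0827 CPM in p57 KO and 0.0202 CPM in control. Brsk1, Hspbp1, Ppp6r1, Ube2s and Isoc2b did not pass.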
